A study of Mus musculus with 5 samples.

Results

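The HoxC cluster genes Hoxc4, Hoxc5, Hoxc6, Hoxc8, Hoxc9, Hoxc10, Hoxc11, Hoxc12 and Hoxc13 were taken by symbol from the gene lists of the count matrices, where each was present once, so that 9 of 32285 genes were examined. The study asked how androgen signaling shapes bones of the mouse, and used single-cell RNA-seq to compare the penis, which holds the developing baculum, with limbs. The 5 libraries were 3 of penis at postnatal day 6, 1 of forelimb and 1 of hindlimb at embryonic day 15. The mice were of strain C57BL/6N by the labels and C57BL/6J by the study's methods, and for these libraries neither source names a treatment, transgene or mutant allele. The penises came from males, and the prepuce was removed. The limbs came from male embryos, several by the methods, and the labels do not say how many were pooled in each limb library. The study's methods do not give the limbs' age uniformly, and the labels' age is used here. The labels do not tie a penis library to a mouse or litter, and the methods name males of more than 1 litter, so p-values measure the spread between these libraries, which may be technical. Tissue and age changed together in every comparison of penis with limb and cannot be told apart.

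Hox genes encode homeodomain transcription factors that give cells a position along the body axis and along the limb. They lie in clusters, and genes from one end of a cluster to the other are used at progressively more posterior levels, so that low-numbered members mark anterior and high-numbered members posterior tissue. Hoxc9, Hoxc10 and Hoxc11 are known from hindlimb and lumbosacral tissue and are largely absent from forelimb mesenchyme. Hoxc12 and Hoxc13 lie at the posterior end, and Hoxc13 is known for its role in hair and nail.

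In the GENCODE M21 annotation of GRCm38, the build that matches the mm10 of the counts, the members spanned 115.75 kb of chromosome 15, chr15:102921103-103036852, all on the + strand and in descending number from Hoxc13 to Hoxc4. Hoxc5 ran from 102967443 to 103017429 and overlapped Hoxc6, Hoxc8, Hoxc9 and Hoxc10, because its second transcript begins in the first exon of Hoxc10 and splices past the genes between. The 2 annotated exons shared 166 bases, chr15:102967443-102967608. The splice junctions of the 2 transcripts are shown because reads in the shared exon cannot be given to either gene. Capitals mark 30 bases of the shared exon and lower case the first 30 bases of the next exon.
Hoxc10 exon 1 to Hoxc10 exon 2: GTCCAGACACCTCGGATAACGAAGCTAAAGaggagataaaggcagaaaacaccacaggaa
Hoxc10 exon 1 to Hoxc5 exon 2: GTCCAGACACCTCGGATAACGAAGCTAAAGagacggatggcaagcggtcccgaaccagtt
Hoxc5 UMIs therefore may include transcripts begun at Hoxc10, and whether reads in introns were counted is not given in the sources used here.

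The homeobox, the 180 bases that code for the DNA-binding domain, is the stretch the members share most. The last 60 bases of the homeobox are shown for the 5 members on which most comparisons turned, from the same annotation, all on the + strand. Capitals mark the 18 bases that code for the core of the third helix, which lies in the major groove of DNA.
Hoxc6 chr15:103010874-103010933: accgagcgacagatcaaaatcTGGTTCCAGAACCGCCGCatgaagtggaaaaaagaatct
Hoxc10 chr15:102970968-102971027: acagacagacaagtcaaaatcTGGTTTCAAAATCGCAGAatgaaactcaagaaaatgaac
Hoxc11 chr15:102956600-102956659: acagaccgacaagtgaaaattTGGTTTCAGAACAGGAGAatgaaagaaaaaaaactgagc
Hoxc12 chr15:102938428-102938487: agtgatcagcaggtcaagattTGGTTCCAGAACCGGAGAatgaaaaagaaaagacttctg
Hoxc13 chr15:102927330-102927389: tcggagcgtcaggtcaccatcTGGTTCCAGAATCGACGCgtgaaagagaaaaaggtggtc
Over the whole homeobox, pairs of members were identical at 48.3% (Hoxc5 and Hoxc13) to 77.8% (Hoxc5 and Hoxc6) of bases. Hoxc10 and Hoxc11 were identical at 67.2% of bases, and Hoxc12 and Hoxc13 at 62.2%.

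The cells kept after filtering numbered 5708 to 7085 per penis library, 22057 in the forelimb and 20514 in the hindlimb, and held 51529854 to 148752710 UMIs (unique molecular identifiers, each a counted RNA molecule) per library. Levels are given as CPM, the usual counts-per-million scale, a gene's UMIs over all UMIs of the summed cells. Because the assay reads transcript ends, CPM values of a gene were compared between libraries and cell types and not between genes. Cells were placed in cell types by gates, lists of marker genes without a Hox gene, of which at least 50% had to be detected. Pairs of penis libraries shared 20 to 37 cell barcodes, and forelimb and hindlimb shared 203. Limb identity genes followed the labels: Tbx5, the forelimb factor, was at 55.5 CPM in forelimb and 3.09 in hindlimb, and Pitx1, the hindlimb factor, at 1.03 and 68.6. The penis libraries held both, at 43.4 to 46.0 CPM for Tbx5 and 41.8 to 43.2 for Pitx1. Isl1, a factor of genital and hindlimb progenitors, was at 196.2 to 201.6 CPM in penis, 0.280 in forelimb and 2.72 in hindlimb.

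Across all filtered cells, penis and hindlimb held RNA of Hoxc4 to Hoxc11, whereas the forelimb held Hoxc4 and Hoxc6 and little of the posterior members. Hoxc10 was at 16.8, 16.3 and 16.2 CPM in the penis libraries, 23.7 in the hindlimb and 0.084 in the forelimb, where 12 UMIs were counted. Hoxc11 was at 21.4, 21.2 and 21.5 CPM in the penis libraries, 10.3 in the hindlimb and 0.161 in the forelimb (23 UMIs). Hoxc9 was at 7.38, 6.78 and 6.89 CPM in the penis, 7.18 in the hindlimb and 0.161 in the forelimb. For each of these posterior members the forelimb lay far below all other libraries, and only for Hoxc9 did the hindlimb lie within the range of the penis libraries.

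**Figure D1:**
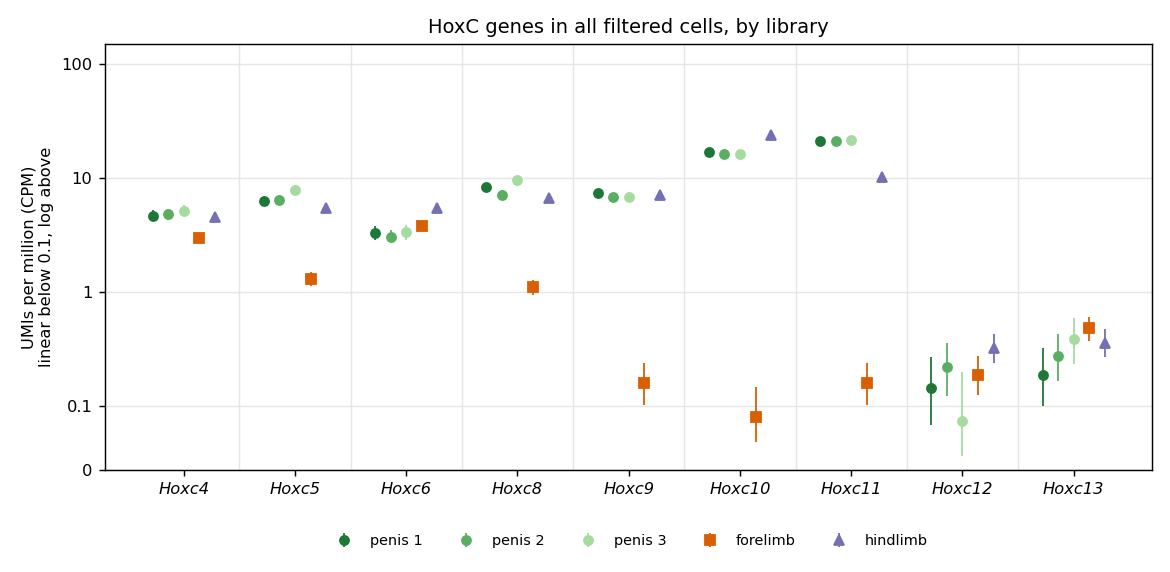
CPM of each HoxC gene over all filtered cells of each library, on an axis that is linear below 0.1 and logarithmic above, with bars for 95% exact Poisson intervals, which cover counting error only. The forelimb sits below 0.2 CPM for Hoxc9, Hoxc10 and Hoxc11, where the 3 penis libraries and the hindlimb lie between 6.78 and 23.7 CPM.

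The members nearer the anterior end stood closer to the other tissues in the forelimb than did Hoxc9 to Hoxc11. Hoxc8, which patterns thoracic levels, was at 8.40, 7.15 and 9.63 CPM in the penis libraries, 6.69 in the hindlimb and 1.11 in the forelimb. Hoxc5 followed it at 6.36, 6.44 and 7.84 CPM in penis, 5.49 in hindlimb and 1.32 in forelimb. In both, the hindlimb lay just below the penis libraries and the forelimb far below. Hoxc6 had another order, with 3.85 CPM in forelimb, 5.44 in hindlimb and 3.32, 3.08 and 3.36 in the penis libraries, so that both limbs lay above the penis. Hoxc4 was at 4.68, 4.84 and 5.14 CPM in the penis, 4.61 in the hindlimb and 2.96 in the forelimb. Hoxc12 and Hoxc13 were low over all cells, at 0.0776 to 0.323 and 0.19 to 0.484 CPM across the 5 libraries. The groups overlapped for Hoxc12 and for Hoxc13.

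With the limbs taken as a single group of 2 libraries, none of the 9 members passed (edgeR quasi-likelihood test, adjusted p under 0.01 and an absolute log2 fold-change over 1), against 24.5% of all genes tested. The count was 0 with DESeq2 as well, and only Hoxc6 had an unadjusted p under 0.05. The limbs disagreed: without the hindlimb 5 members were called higher in penis, and without the forelimb 1 was. The limbs were therefore also set apart in a fit with 3 groups, in which the lone limb library is assumed to vary as the penis libraries did, so that the p-values rest on the spread of the penis libraries alone. The contrasts share the penis libraries and are given side by side.

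Against the forelimb, 5 of 9 members were higher in penis and none was lower, where 11.9% of all genes tested were higher. Hoxc10 had the largest log2 fold-change, 7.51 ± 0.16 (SE; edgeR adjusted p = 6.89e-11). Hoxc11 followed at 6.96 ± 0.14 (edgeR adjusted p = 4.24e-11). Hoxc9 rose by 5.36 ± 0.18, Hoxc8 by 2.83 ± 0.16 and Hoxc5 by 2.30 ± 0.14 on the log2 scale, with edgeR adjusted p at most 1.2e-07. Among the 5 called members the sizes increased toward the posterior end up to Hoxc10. Hoxc4, at 0.64 ± 0.11, was under the fold limit, and Hoxc6 (-0.32 ± 0.11), Hoxc12 (-0.38 ± 0.51) and Hoxc13 (-0.87 ± 0.36) did not pass. The median over the 9 members was 2.30, beside 0.0143 over all genes tested.

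Against the hindlimb, 1 of 9 members was called higher in penis, where 12.5% of all genes tested were higher and 23.8% were called in either direction. Hoxc11 was higher by a log2 fold-change of 1.01 ± 0.075 (edgeR adjusted p = 5.3e-07), at the fold limit, and the call was lost with DESeq2 and when all deposited barcodes were used. Hoxc6, at -0.79 ± 0.10, and Hoxc10, at -0.58 ± 0.071, had edgeR adjusted p of 4.05e-05 and 2.85e-05 but changed less than the fold limit. Hoxc4 (0.033 ± 0.10), Hoxc5 (0.27 ± 0.11), Hoxc8 (0.27 ± 0.12) and Hoxc9 (-0.080 ± 0.096) had edgeR adjusted p of 0.0568 or more. The neighbours Hoxc10 and Hoxc11 thus had fold-changes of opposite sign.

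**Figure D2:**
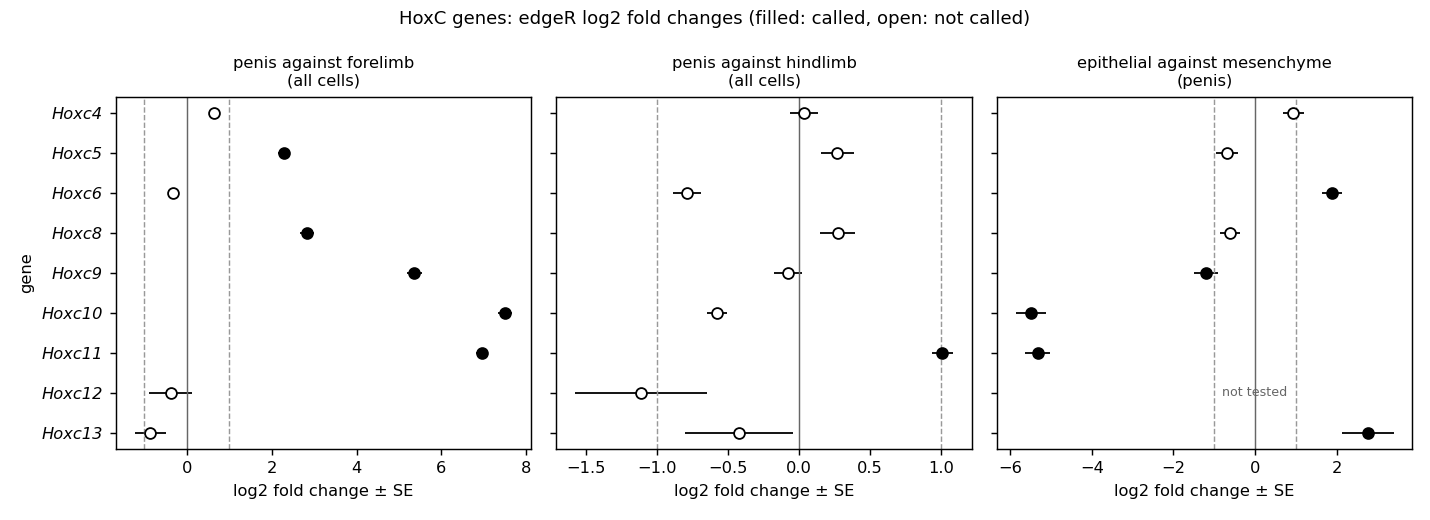
Log2 fold-change of each HoxC gene with its standard error from edgeR, for penis against forelimb and against hindlimb over all cells, and for epithelial against mesenchyme-gated cells of the penis. Filled points were called, open points were not, and dashed lines mark a log2 fold-change of 1 in either direction. The 5 genes from Hoxc5 to Hoxc11 other than Hoxc6 are filled against the forelimb, only Hoxc11 is filled against the hindlimb, and the last panel spans -5.50 (Hoxc10) to 2.77 (Hoxc13).

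The limbs had 1 library each and were not tested against each other, so the ratios of hindlimb to forelimb carry counting intervals only. Hoxc10 was 282 times as high in hindlimb (95% interval 161 to 547). Hoxc11 was 63.7 times (42.3 to 101) and Hoxc9 44.6 times (29.5 to 70.6) as high. The ratio was 6.04 for Hoxc8 (5.10 to 7.19), 4.17 for Hoxc5 (3.55 to 4.91), 1.56 for Hoxc4 (1.38 to 1.76) and 1.41 for Hoxc6 (1.27 to 1.58). Hoxc13 was the only member with a ratio below 1, at 0.751, with an interval that spans 1 (0.516 to 1.09).

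The members were not used alike by the cell types. In penis, mesenchyme, chondrocyte, tendon and glial-gated cells held Hoxc4 to Hoxc11, endothelial and myeloid-gated cells held almost none, and epithelial-gated cells held the anterior members but little Hoxc10 or Hoxc11. Gates with under 20 cells in a library were not described there, which were osteoblast in every library and muscle and red blood cells in penis. Mural-gated cells, 74 to 88 per penis library, held Hoxc10 at 14.7, 12.1 and 21.0 CPM and Hoxc11 at 22.0, 12.1 and 10.5, from 6 to 15 UMIs per library, with mesenchyme markers summing to 41.9% to 47.5% of the mesenchyme level. Over all cells, fewer cells of a type and less RNA per cell cannot be told apart.

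**Figure D3:**
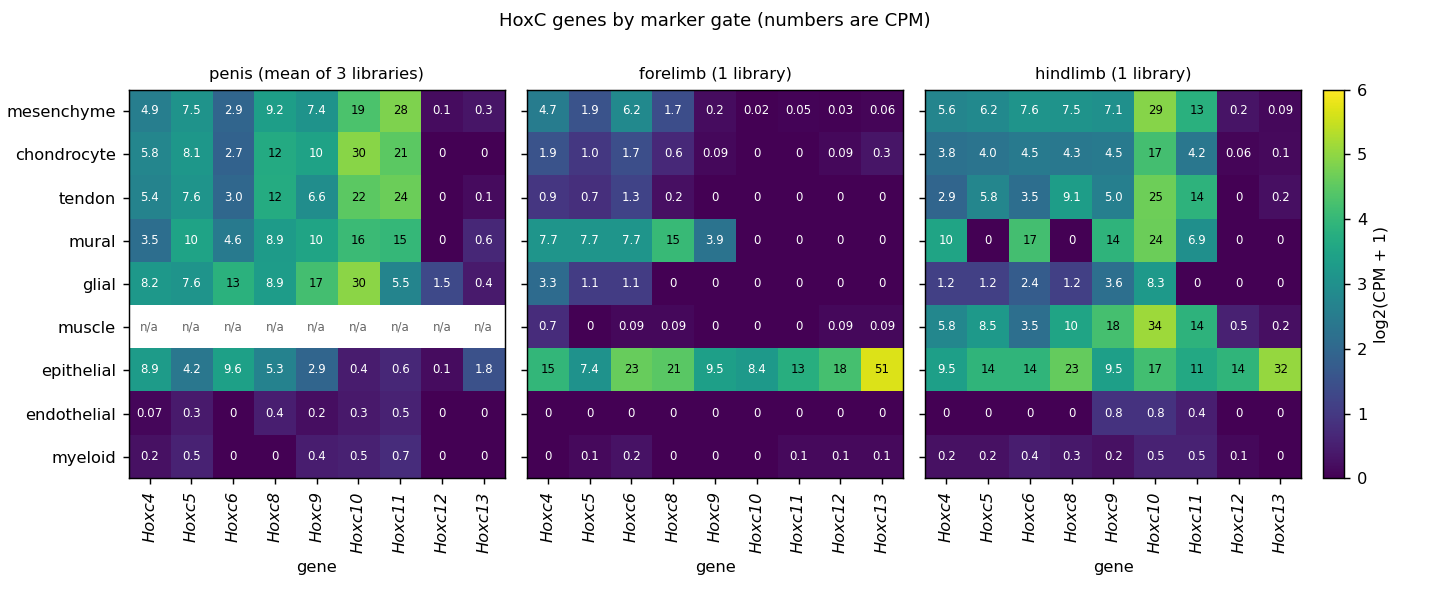
CPM of each HoxC gene (columns) in cells of each marker gate (rows), with the mean of 3 libraries for penis and 1 library for each limb, coloured by log2(CPM + 1); n/a marks muscle in the penis, which had too few cells. The epithelial row of both limbs is filled from Hoxc4 to Hoxc13, reaching 50.5 CPM for Hoxc13 in forelimb, while the same row of the penis fades after Hoxc9.

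The mesenchyme, connective tissue cells marked by Pdgfra, Prrx1 and Twist1, was the largest gate, with 3378 to 4144 cells per penis library, 9680 in the forelimb and 8809 in the hindlimb. In it Hoxc11 stood at 27.2, 27.1 and 28.2 CPM in the penis libraries, 13.1 in the hindlimb and 0.0459 in the forelimb, where 3 UMIs were counted. Hoxc10 stood at 19.0, 18.4 and 18.6 CPM in the penis, 29.0 in the hindlimb and 0.0153 in the forelimb (1 UMI). The penis libraries were close to each other for both genes, above the hindlimb for Hoxc11 and below it for Hoxc10. Hoxc11 UMIs were seen in 24.0%, 22.9% and 22.6% of penis mesenchyme cells and in 8.04% of hindlimb ones. Thinned to 2000 UMIs per cell, these shares were 5.29%, 5.15%, 5.43% and 2.44% in the 3358 to 4123 penis and 8751 hindlimb cells deep enough. As a background, in myeloid-gated cells Hoxc11 UMIs were in at most 2 cells of a penis library (1.05%) and in 0.338% of hindlimb cells, at median depths of 6392 to 7828 UMIs against 6435 to 10520 in mesenchyme.

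Tested between 3 penis and 2 limb libraries, the mesenchyme showed 1 member higher and 1 lower of 8 tested, where 25.3% of all genes tested were called in either direction. Hoxc6 was lower in penis, with 3.12, 2.64 and 2.87 CPM against 6.16 in forelimb and 7.61 in hindlimb, groups that do not overlap (log2 fold-change -1.29 ± 0.13, edgeR adjusted p = 2.19e-05). The call for Hoxc6 held in every alternative tried. Hoxc13 was called higher, by 1.75 ± 0.44 (edgeR adjusted p = 0.00601), from levels of 0.226, 0.255 and 0.336 CPM against 0.0611 in forelimb and 0.0912 in hindlimb. Those levels rest on 4 to 11 UMIs per library, Hoxc13 passed the filter on low counts only through the penis libraries, where it was higher, and nothing is read from the call. It was lost with DESeq2 (adjusted p = 0.0376), with no filter on low counts, with gates stricter by 1 marker, and on leaving out penis 2, penis 3 or either limb. With gates looser by 1 marker Hoxc13 was not tested. Hoxc11 (2.04 ± 0.85) and Hoxc10 (0.34 ± 0.99) did not pass and had wide errors, with the 2 limbs far apart.

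In cells that passed the chondrocyte gate (Col2a1, Acan and others), the penis stood highest for both Hoxc10 and Hoxc11. The gated cells were unlike in their markers. Col2a1 was detected in 53.85% to 65.25% of them in penis, 97.3% in forelimb and 96.6% in hindlimb. Matn4 was in 13.6% to 18.3%, 78.6% and 74.7%, and Mia in 22.5% to 27.8%, 80.3% and 84.8%. Col9a1 went the other way, at 86.5% to 91.1%, 83.2% and 83.1%, and Col9a2 overlapped. Hoxc11 was at 26.0, 21.8 and 16.1 CPM in penis chondrocyte-gated cells, 4.21 in hindlimb and 0 in forelimb. Hoxc10 was at 28.5, 26.7 and 33.4 CPM in penis, 17.4 in hindlimb and 0 in forelimb, where none of 1907 cells held a UMI. Both genes were thus higher in all 3 penis libraries than in the hindlimb in this gate, although Hoxc10 had the reverse order in mesenchyme. The chondrocyte gate of the penis was small, with 141 to 169 cells per library, and its summed level of the 8 mesenchyme markers was 68.8% to 73.1% of that in mesenchyme, against 38.6% in hindlimb. The part of those markers in the difference was not tested.

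Muscle and glial cells held the posterior members at levels as high as the mesenchyme in some tissues. Hindlimb muscle-gated cells, 1031 marked by Pax7, Myod1, Tnnt1 and others, had Hoxc10 at 33.9 CPM, Hoxc9 at 17.9, Hoxc11 at 13.6 and Hoxc8 at 10.4. In 1257 forelimb muscle cells Hoxc9, Hoxc10 and Hoxc11 had no UMI, so Hoxc10 was at least 129-fold higher in the hindlimb, taken against a floor of 3 counts. The mesenchyme markers summed to 4.06% of the mesenchyme level in hindlimb muscle, and 8 of 8 were detected. Penis glial-gated cells, 149 to 175 per library and marked by Sox10, Erbb3 and others, had Hoxc10 at 29.7, 35.5 and 25.6 CPM and Hoxc9 at 18.6, 18.03 and 15.8. Their Hoxc11 was lower than in mesenchyme in every library, at 8.16, 5.30 and 3.01 CPM. Mesenchyme markers summed to 2.89% to 3.00% of the mesenchyme level there. In hindlimb glia, 110 cells, Hoxc10 was at 8.31 CPM (7 UMIs), and in 142 forelimb glial cells it was not counted.

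Within the mesenchyme, the members differed between hindlimb cells split by Hoxa11 and Hoxa13 UMIs, and had no uniform direction in the penis libraries. Position itself was not measured. Hoxa13 marks the distal limb and Hoxa11 the segment before it, so mesenchyme cells with a Hoxa11 and no Hoxa13 UMI were set against cells with a Hoxa13 and no Hoxa11 UMI. In hindlimb, all 7 members from Hoxc4 to Hoxc11 were higher in Hoxa11 cells, by 2.52 times (Hoxc6) to 4.75 times (Hoxc4). Hoxc10 was at 27.5 CPM in 1188 Hoxa11 cells and 7.91 in 1016 Hoxa13 cells, a ratio of 3.48 (95% counting interval 2.65 to 4.62). Hoxc11 was at 20.3 and 4.68 CPM, a ratio of 4.35 (3.07 to 6.29). Over the whole hindlimb mesenchyme Hoxc10 was at 29.0 CPM, near its level in Hoxa11 cells, and Hoxc11 at 13.1. In the 3 penis libraries the ratio for Hoxc11 was 0.903, 1.12 and 1.13, and for Hoxc10 1.27, 0.763 and 1.07. The penis ratios lay on both sides of 1, and the hindlimb lay above every penis library for each of the 7 members. In forelimb the counts were small: in Hoxa11 and Hoxa13 cells Hoxc4 had 14 and 0 UMIs, Hoxc5 6 and 2, Hoxc6 10 and 5 and Hoxc8 3 and 2, and Hoxc9 to Hoxc11 had none. In the hindlimb the Hoxa11 cells had a median of 7174 UMIs and the Hoxa13 cells 6500. For Hoxc6 the intervals of the hindlimb (1.43 to 4.64) and of 2 penis libraries overlapped, as did those of Hoxc5 in hindlimb (1.63 to 5.38) and penis 2 (0.852 to 1.80).

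**Figure D4:**
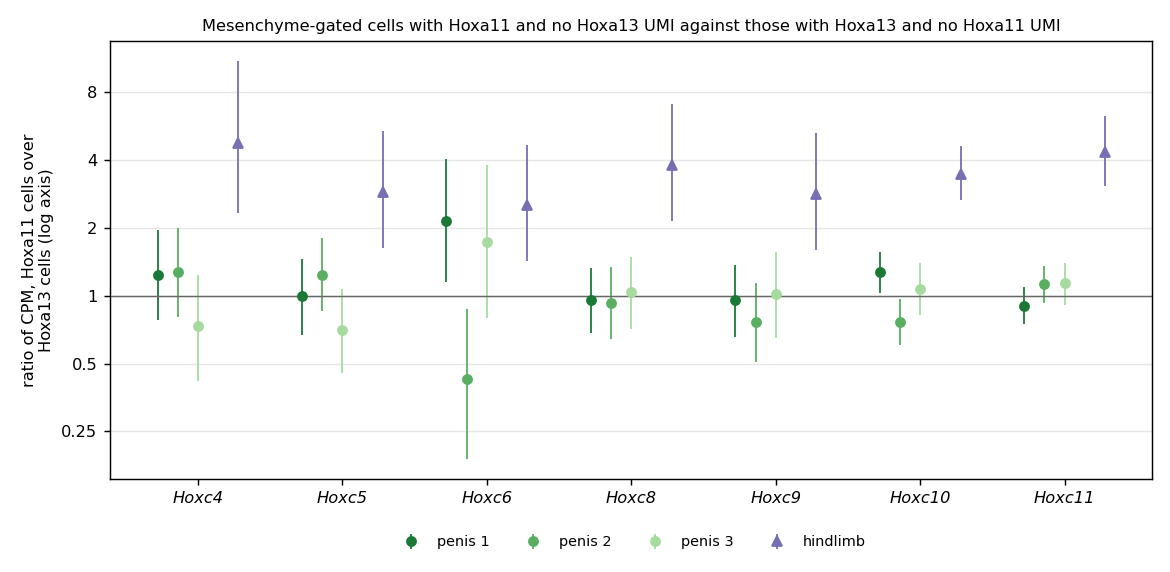
Ratio of CPM in mesenchyme-gated cells with Hoxa11 and without Hoxa13 UMIs to that in cells with Hoxa13 and without Hoxa11 UMIs, for 7 HoxC genes, on a log axis, with 95% counting intervals. The hindlimb (triangles) lies at 2.52 to 4.75 for all 7 genes, and the penis libraries (circles) lie between 0.426 and 2.15. The forelimb is not drawn, since its counts were at most 14 UMIs per gene and set.

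Cells with a UMI of Meis2, a cofactor that marks the proximal limb, were set against cells without. In hindlimb mesenchyme Hoxc10 was at 45.9 CPM with Meis2 and 21.3 without, and Hoxc6 at 14.6 and 4.44. In forelimb mesenchyme Hoxc6 was at 12.03 CPM with Meis2 and 4.00 without, Hoxc4 at 10.3 and 2.66, and Hoxc8 at 4.37 and 0.691. The ratio for Hoxc8 in forelimb was 6.33 (95% counting interval 4.16 to 9.82), the highest of the members with over 20 UMIs in each set. In the penis libraries it was 0.932, 1.055 and 1.02. Over Hoxc4 to Hoxc11 the penis ratios ran from 0.924 to 1.68, and the highest in each library were those of Hoxc4 in penis 1 (1.42; 1.08 to 1.87) and penis 2 (1.21; 0.911 to 1.61) and of Hoxc6 in penis 3 (1.68; 1.09 to 2.56). A split on Twist2, itself a marker of the mesenchyme gate, also separated forelimb cells, with Hoxc8 at 3.23 CPM with Twist2 and 0.152 without, Hoxc4 at 8.37 and 1.12 and Hoxc6 at 10.6 and 1.73, at median depths of 5871 and 5695.5 UMIs. In hindlimb Hoxc6 was at 11.7 and 3.87 CPM and Hoxc11 at 12.1 and 13.9. Cells with Meis2 were deeper, by medians of 7120 against 5478 UMIs in the forelimb, 7502 against 6149 in the hindlimb and 9830 to 11104 against 9083 to 10215 in the penis.

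The epithelium was gated on Krt5, Krt14, Trp63 and other keratinocyte markers. Penis epithelium comprised 284, 321 and 220 cells, forelimb 142 and hindlimb 168. Before filtering, 536, 645 and 452 barcodes passed this gate in penis, 200 in forelimb and 220 in hindlimb. The filters, stricter for penis, thus removed a larger share of epithelial barcodes there. Hoxc13 was at 0.663, 1.30 and 3.50 CPM in penis epithelium, 50.5 in forelimb (48 UMIs) and 32.3 in hindlimb (34 UMIs). Hoxc12 was at 0, 0 and 0.437 CPM in penis epithelium, 17.9 in forelimb and 14.3 in hindlimb. The limbs lay far above every penis library for both genes.

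Hoxc10 and Hoxc11 followed, although the forelimb was otherwise nearly without them. Hoxc11 was at 0.994, 0.325 and 0.437 CPM in penis epithelium, 12.6 in forelimb and 11.4 in hindlimb. Hoxc10 was at 0.331, 0.325 and 0.437 CPM, with 1 UMI in each penis library, against 8.42 in forelimb and 17.1 in hindlimb. Of the 12 Hoxc10 UMIs of the whole forelimb library 8 lay in its 142 epithelial cells, as did 12 of 23 Hoxc11, 17 of 27 Hoxc12 and 48 of 69 Hoxc13 UMIs. In the forelimb, epithelium stood above mesenchyme by 826.5 times for Hoxc13 (95% counting interval 303 to 3156) and by 275.5 times for Hoxc11 (74.4 to 1521). The forelimb excess was not particular to these members. It was 62.0 times for Hoxc9 (22.3 to 170), 12.5 for Hoxc8 (7.36 to 20.3) and 3.12 to 3.86 for Hoxc4, Hoxc5 and Hoxc6. In the hindlimb the ratio was 354 for Hoxc13 (147 to 1032) but 0.873 for Hoxc11 (0.450 to 1.53). The mesenchyme markers summed to 5.94% of the mesenchyme level in the epithelium of either limb and to 3.13% to 3.45% in that of the penis. Of the 10 forelimb cells with a Hoxc10 UMI, 1 had a barcode also found in the hindlimb library, and of the 18 with Hoxc11 none had.

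**Figure D5:**
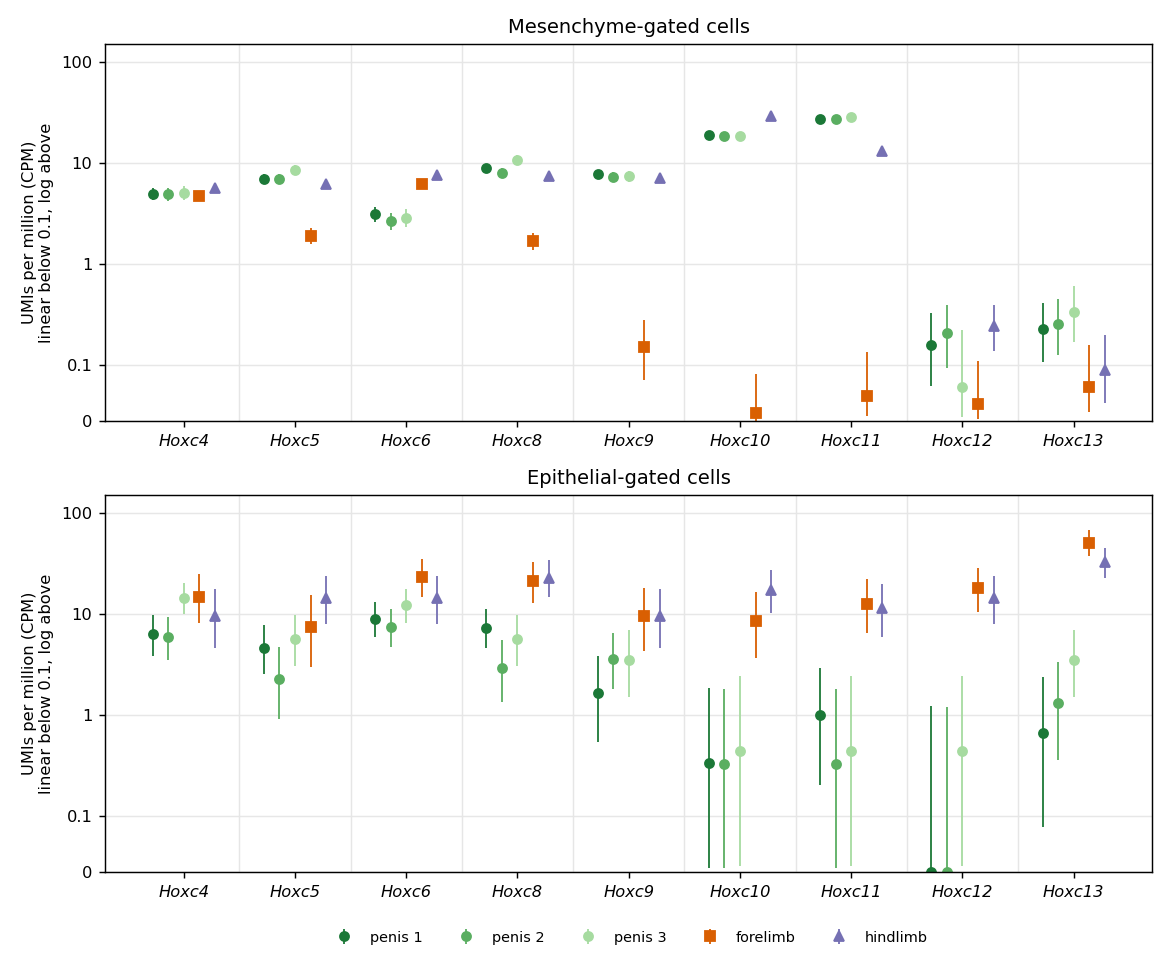
CPM of each HoxC gene in mesenchyme-gated (top) and epithelial-gated (bottom) cells of each library, on an axis linear below 0.1 and logarithmic above, with 95% exact Poisson intervals for counting error. In epithelium both limbs lie at 8.42 CPM or above for Hoxc10 to Hoxc13 and the penis libraries at 3.50 or below, while in mesenchyme the forelimb alone is low for Hoxc9 to Hoxc11.

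The limb epithelial UMIs of the posterior members were counted in a minority of cells. At these levels and depths, a cell without a UMI is not shown to lack the RNA. Hoxc10, Hoxc11, Hoxc12 or Hoxc13 was detected in 34 of 142 forelimb and 34 of 168 hindlimb epithelial cells, with 2 or more of them in 10 cells of each. In penis epithelium 5 of 284, 6 of 321 and 8 of 220 cells held any of them. In forelimb, the 23 epithelial cells with Hoxc13 had Hoxc12 at 34.9 CPM, Hoxc6 at 45.3 and Hoxc8 at 38.4, against 10.6, 13.6 and 13.6 in the 119 without. Those values of the cells with Hoxc13 rest on 10, 13 and 11 UMIs, in 5, 5 and 4 cells. In hindlimb, the 13 cells with Hoxc13 had Hoxc12 at 48.6 CPM and Hoxc10 at 34.7, against 8.80 and 14.3 in the 155 without. There, the 13 cells held 7 Hoxc12 UMIs in 6 cells and 5 Hoxc10 UMIs in 4 cells. The cells with Hoxc13 were deeper, with medians of 6630 and 8038 UMIs against 3924 and 4551. Of the 8 markers of the epithelial gate, Krt15, Sfn, Perp and Dsp were lower in the cells with Hoxc13 in both limbs, and Krt5, Krt14, Epcam and Trp63 were higher. Krt15 was at 1147 against 5478 CPM in forelimb and 826 against 3964 in hindlimb, and Trp63 at 391 against 207 and 500 against 182. Of the 8 mesenchyme markers, Fbln1 was higher in both limbs, at 94.2 against 54.3 CPM and 76.3 against 52.8, Il11ra1, Lum and Prrx2 were lower in both, and the other 4 went opposite ways. This split was chosen after the levels were seen.

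Within the penis, epithelium was tested against mesenchyme with the library as a block, and 5 of 8 tested members were called, 2 higher and 3 lower, where 34.9% of all genes tested were called in either direction, 12.7% higher and 22.2% lower. Of the 5, Hoxc10, Hoxc11 and Hoxc13 passed the filter on low counts only through the gate where they were high, so the count is a description. Hoxc10 and Hoxc11 were lower, by log2 fold-changes of -5.50 ± 0.37 and -5.33 ± 0.31. Both passed the filter on low counts only through the mesenchyme, where they were high, so these values are descriptions. Hoxc11 rests on 5 epithelial UMIs in all. Hoxc10 rests on 3, a ratio to mesenchyme of 0.0192 (95% counting interval 0.00395 to 0.0561). Hoxc6 was higher, at 8.95, 7.48 and 12.2 CPM against 3.12, 2.64 and 2.87 in mesenchyme (1.88 ± 0.25, edgeR adjusted p = 2.18e-06). Hoxc13 was higher by 2.77 ± 0.63 (edgeR adjusted p = 0.000729), from 2, 4 and 8 epithelial UMIs, having passed the filter only through the epithelium, and was not called without penis 3 (adjusted p = 0.059). Hoxc9 was lower by -1.19 ± 0.30 (edgeR adjusted p = 0.00159), a call lost with DESeq2, with all deposited barcodes, without penis 1 and without penis 3. Hoxc4 (0.94 ± 0.26) was just under the fold limit, and Hoxc5 and Hoxc8, at -0.69 ± 0.27 and -0.62 ± 0.25, did not pass.

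Whether epithelium and mesenchyme differed in the same way in penis and limbs was tested as an interaction over the 5 libraries. The penis difference was the lower for 7 of 9 members, where 5.69% of all genes tested were lower and 7.59% higher. The interaction was furthest from 0 for Hoxc12 (-7.10 ± 1.42), Hoxc11 (-6.42 ± 0.90), Hoxc13 (-6.27 ± 0.86) and Hoxc10 (-5.51 ± 0.92), with edgeR adjusted p of 5.88e-05 or less. Hoxc8 (-3.06 ± 0.44), Hoxc9 (-2.86 ± 0.70) and Hoxc5 (-2.20 ± 0.52) also passed, with edgeR adjusted p of at most 0.00123. Hoxc4 (-0.34 ± 0.46) and Hoxc6 (0.39 ± 0.41) did not, with edgeR adjusted p of 0.718 and 0.605. Hoxc12 passed the filter on low counts only through limb epithelium, where it was high, and its value leans on 1 penis epithelial UMI and depends on the prior count of the fit. Hoxc9 was not called without the forelimb (-1.70, edgeR adjusted p = 0.075), with DESeq2 or with all deposited barcodes, and Hoxc5 not without the hindlimb (-2.68, edgeR adjusted p = 0.0199) or with looser gates. The sizes depended on which limb entered: without the hindlimb Hoxc10 was at -14.24 and Hoxc11 at -13.33, and without the forelimb at -4.82 and -5.21. Hoxc12 was at -12.41 without penis 3, which held its single epithelial UMI of the penis. These members stayed called in each case. Without the library block only Hoxc12 and Hoxc13 kept the call, and the share of all genes called in that fit is not given here.

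Endothelial-gated cells, marked by Cdh5, Pecam1 and Emcn, were nearly without HoxC RNA in every library. In the 3 penis libraries, 358 to 436 cells, no member exceeded 0.696 CPM. All 7 members tested were lower than in penis mesenchyme, where 20.5% of all genes tested were lower, but each of the 7 passed the filter on low counts through the mesenchyme, where it was high, so the count is a description. The log2 fold-changes ran from -4.41 ± 0.33 (Hoxc8) to -5.78 ± 0.60 (Hoxc4) among those with a UMI, and are descriptions too. Mesenchyme markers summed to 3.16% to 4.09% of the mesenchyme level in penis endothelium. The part of carried-over RNA in these values was not tested. Hoxc6 had no endothelial UMI in any penis library and was at least 11.8-fold lower, with a floor of 3 counts set for the 3 libraries together. Forelimb endothelial cells held no UMI of any member. The 262 hindlimb ones held Hoxc9, Hoxc10 and Hoxc11 at 0.413 to 0.826 CPM, each below a floor of 3 counts. Mesenchyme markers summed to 5.77% of the mesenchyme level in them, so no difference between the limbs is read from these values.

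Paralogs in the other clusters shared some of these patterns and opposed others. In penis epithelium, the genes of paralog groups 10 and 11 were lower than in mesenchyme in every cluster that has them: Hoxa10 by -2.07 ± 0.11, Hoxd10 by -1.29 ± 0.20, Hoxa11 by -3.46 ± 0.21 and Hoxd11 by -3.36 ± 0.15 (edgeR adjusted p at most 1.25e-05). In group 9, Hoxa9 (1.57 ± 0.072) and Hoxd9 (3.64 ± 0.17) were higher in epithelium where Hoxc9 was lower. In group 13 the order was the reverse, with Hoxa13 (-3.43 ± 0.17) and Hoxd13 (-3.67 ± 0.14) lower and Hoxc13 higher. The Hoxc13 side is a description: it rests on 2, 4 and 8 epithelial UMIs. Hoxc13 passed the filter only through the epithelium and was not called without penis 3. The Hoxc9 call was lost with DESeq2, with all deposited barcodes, without penis 1 and without penis 3. In limb epithelium, too, Hoxa13 fell below its mesenchyme level, at 2.11 against 15.9 CPM in forelimb and 0.950 against 23.0 in hindlimb. Both epithelial levels lie below a floor of 3 counts and are descriptions.

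Counts over the whole lists are given beside the shares of all genes tested. In the interaction, 7 HoxC, 1 HoxB and no HoxA or HoxD genes were lower, and 2 of 11 HoxA, 4 of 8 HoxD and no HoxC or HoxB genes tested were higher, against 5.69% of all genes lower and 7.59% higher. Hoxc12, among the 7, passed the filter on low counts only through limb epithelium. In penis endothelium against mesenchyme, all 7 HoxC genes tested were lower, whereas 7 of 8 HoxB genes were higher and 1 was lower, with 2 higher and 4 lower of 9 HoxA genes and 4 higher and 3 lower of 8 HoxD genes, against 12.9% of all genes higher and 20.5% lower. The HoxC genes passed the filter through the mesenchyme, where they were high. Hoxb4 to Hoxb8 passed it only through endothelium, at 5.59 to 42.9 CPM there and 0 to 0.384 in penis mesenchyme. The HoxC and HoxB counts are therefore descriptions. Hoxb9 and Hoxd9, at 39.8 to 41.5 and 42.4 to 55.6 CPM in penis endothelium, were higher there by 4.05 ± 0.12 and 3.81 ± 0.12, while Hoxc9 had 2 UMIs in all. Against the forelimb over all cells, 1 of 11 HoxA, 3 of 9 HoxB and no HoxD genes tested were higher in penis, beside 5 of 9 HoxC genes and 11.9% of all genes. Of the 9 TALE cofactors (Pbx, Meis and Pknox genes, whose products bind DNA with Hox proteins), 3 were higher and none lower against the forelimb, and 3 higher and 2 lower in the interaction.

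Across the 40 sums of at least 50 cells by gate and library, the likeness of the members' patterns of log2(CPM + 1) did not simply follow their order in the cluster. The highest Pearson's r were 0.948 for Hoxc5 and Hoxc8, 0.923 for Hoxc9 and Hoxc10, 0.905 for Hoxc8 and Hoxc9, 0.901 for Hoxc4 and Hoxc6, 0.895 for Hoxc12 and Hoxc13 and 0.893 for Hoxc10 and Hoxc11. Among neighbours, r was 0.769 for Hoxc5 and Hoxc6 and 0.204 for Hoxc11 and Hoxc12. It was lowest for Hoxc10 and Hoxc13, at 0.111. The values for Hoxc5 carry a limit, since its gene model overlaps Hoxc6, Hoxc8, Hoxc9 and Hoxc10. Its UMIs may include transcripts begun at Hoxc10. Sums from the same library share its depth and preparation, and no test was made. Outside the Hox genes, Hoxc11 was most like Tbx4 (r = 0.814), a T-box factor of hindlimb and genital mesenchyme, then Sp9 (0.805) and Gtpbp1 (0.778). Tbx4 was at 105, 102 and 111 CPM over all cells of the penis libraries, 4.94 in forelimb and 32.0 in hindlimb. The nearest genes were Eid2b (0.793), Nrbp2 (0.792) and Ercc5 (0.785) for Hoxc8, Ndrg2 (0.738), Emp2 (0.736) and Eid2b (0.735) for Hoxc9, and Osbpl1a (0.715), Elob (0.713) and 4933431E20Rik (0.7045) for Hoxc10. The other members averaged under 5 CPM and were not ranked.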

How the data were processed

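The deposited files hold raw UMI counts per gene and barcode, made by the authors with Cell Ranger 7.0.0 against mm10 from 5 10X Genomics libraries (penis at P6, 3; forelimb, 1; hindlimb, 1). Every deposited barcode holds at least 500 UMIs. Barcodes were kept with 500 to 6000 genes (penis), 100 to 9000 (forelimb) or 100 to 9500 (hindlimb), mitochondrial shares up to 5% (penis) or 10% (limbs), and log10 genes per log10 UMIs of at least 0.8. The methods give the first of these limits as reads per cell, and they were read as genes. A cell passed a gate with at least 50% of its markers detected. Cells passing mesenchyme and a single one of chondrocyte, osteoblast or tendon took the latter name, and cells passing other combinations or none were left out, which was the only treatment of doublets.

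Counts were summed per library, or per library and gate, and tested with edgeR 4.0.16 (limma 3.58.1, R 4.3.3): TMM, filterByExpr, quasi-likelihood test, Benjamini-Hochberg over all genes tested. A gene was called at adjusted p under 0.01 and an absolute log2 fold-change over 1, or for the interaction at adjusted p under 0.01 alone. Each SE was derived from the fold-change and its F statistic (log2 fold-change divided by root F). Sums from 1 library were paired by using the library as a block. Simulated data were run for penis against limb and against hindlimb over all cells, penis epithelium against mesenchyme and the interaction. The other comparisons were not simulated. DESeq2 1.42.0 (size factors and Wald test), no filter, no TMM, all barcodes, gates 1 marker looser or stricter, no block and leaving out each library were alternatives. Levels, exact Poisson and binomial 95% intervals and figures used scipy 1.17.1, numpy 2.4.6, matplotlib 3.10.9 and pandas 2.3.3 under Python 3.11.15. Depth was 51529854 to 148752710 UMIs per library, at which 3 counts, the floor used for a count of 0, are 0.0202 to 0.0582 CPM. Intervals and floors cover counting error only.

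The text names all 9 members, the 3 non-Hox genes of most alike pattern for each member averaging at least 5 CPM, the 4 limb identity genes as label checks and paralogs of described members. The members, lists and gates were chosen with earlier results of these data known. Gene positions and sequences came from GENCODE M21 (GRCm38). Protein sequences were not used here.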

Additional observations from a re-analysis of the deposited data

Results flagged for a closer look

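For 7 HoxC genes the difference between epithelial and mesenchyme-gated cells was itself different between penis and limb, by the interaction term of an edgeR fit over the 3 penis and 2 limb libraries. The interaction, the penis log2 fold-change minus that of the limbs, was -6.42 for Hoxc11, -6.27 for Hoxc13 and -5.51 for Hoxc10. It was -3.06 for Hoxc8, -2.86 for Hoxc9 and -2.20 for Hoxc5. For Hoxc12 it was -7.10, a value that rests on 1 penis epithelial UMI, moved to -12.41 without penis 3 and belongs to a gene that passed the filter on low counts only through limb epithelium. The penis libraries held 0 to 8 epithelial UMIs of each of Hoxc10 to Hoxc13, and the limb libraries held 8 to 48. Without the hindlimb Hoxc10 was at -14.24 and Hoxc11 at -13.33, and without the forelimb at -4.82 and -5.21. Without the library as a block, Hoxc12 and Hoxc13 kept an adjusted p under 0.01 and the other 5 did not. The 2 limbs differed in mesenchyme, where Hoxc10 had 1 UMI in the forelimb and stood at 29.0 CPM in the hindlimb.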

How the results depend on the processing

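Of 552 values of single members under the alternatives, 504 kept direction and side of the threshold, 24 lost the call, 16 gained it and 8 changed sign. Leaving out 1 library at a time moved Hoxc10 from -0.58 (without the forelimb) to 7.50 and Hoxc9 from -0.082 to 5.35 in penis against limb. In mesenchyme it moved Hoxc10 from -0.655 to 9.98 and Hoxc4 from -0.21 to 0.028 (without the hindlimb). In the interaction it moved Hoxc6 from -0.077 (without the hindlimb) to 0.90 and Hoxc4 from -0.79 to 0.10 (without the forelimb). Using all deposited barcodes turned Hoxc6 against the forelimb (0.0070) and Hoxc13 against the hindlimb (0.40), both uncalled. The cause was not tested.

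Members called higher against the hindlimb fell to 0 with DESeq2 and with all barcodes, and in mesenchyme to 0 with DESeq2, with no filter on low counts, and with gates looser or stricter by 1 marker. On leaving out 1 library at a time, members higher ran from 0 to 5 against limb (5 without the hindlimb, 1 without the forelimb), from 0 to 5 in mesenchyme (5 without the hindlimb, 0 without penis 2 or penis 3) and from 1 to 3 in penis epithelium (1 without penis 3). Members lower against the hindlimb ran from 0 to 1 (Hoxc12, -1.51, without penis 2).

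Without the replicate block, only Hoxc12 and Hoxc13 of the members lower in the interaction kept the call. The block pairs gates of the same library, so the pairing comes from the design. Depth limits Hoxc12 and Hoxc13 in penis most, with 4 to 20 UMIs per library over all cells.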
